A study of Mus musculus with 4 samples.

Results

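Cell cycle and DNA replication genes were described in CD4 T cells of the mouse colon lamina propria, the connective tissue layer beneath the gut epithelium. Of 40 listed genes, 39 had a column among the 25724 gene columns of the deposited count table (Mki67 is not analysed here). These were 14 S phase genes, 17 mitotic genes and 8 further genes of chromatin, tubulin and cell cycle control, some of which many cells use outside division. The members were listed by name and not by a rule on their values, but with earlier results of these data known. The labels give 1 group of 4 samples, Btheta_colon 1 to 4, from male B6 mice aged 6 weeks, all under 1 library name, with cells sorted as CD45+ TCRb+ CD4+ and profiled by inDrops. inDrops captures the RNA of single cells in droplets with barcoded oligo dT primers, so most counts come from the 3′ ends of transcripts. The barcodes carry no sample, so the table is 1 sample without replicates: no p-value is given, and every interval covers counting error only.

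A dividing T cell first loads the hexameric MCM helicase onto its DNA and makes deoxynucleotides, then copies the genome in S phase with the sliding clamp PCNA, and then condenses and separates its chromosomes in mitosis. Genes of the S phase step are under E2F transcription factors, which are released when the retinoblastoma protein is phosphorylated. Genes of the mitotic step are under a later program that acts through the CHR promoter element, often beside CCAAT boxes. In the colon, most CD4 T cells are antigen-experienced, and Foxp3-positive regulatory T cells (Tregs) are a large share of them, many with GATA3 and interleukin 10.

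The promoters of the members were read from RefSeq (assembly GRCm38.p6), with 250 bases before and 50 after each annotated start, since these elements are known to set S phase and mitotic genes apart. A promoter matched 33 members, 13 S phase, 14 mitotic and 6 others. On either strand, 7 of the 13 S phase members held at least 1 of the E2F words TTTGGCGC, TTTCCCGC, TTCCCGCC and TTGGCGGG, against 0 of 14 mitotic members, 0 of 6 others and 4.60% of 27025 genes in the same table. TTTCCCGC and TTCCCGCC overlap, so 1 run of bases can hold both. The CHR word TTTGAA was held by 9 of 14 mitotic members, 1 of 13 S phase members (Mcm2) and 2 of 6 others (Hmgb2 and Cks1b), against 20.2% of all genes. The related word TTTAAA, in 5 S phase, 6 mitotic and 1 other member against 14.9% of all genes, was spread over both classes. CCAAT was held by 12 mitotic, 10 S phase and 5 other members, against 41.1% of all genes, and CCAAT together with TTTGAA by 9, 1 and 2, against 7.97%. A match is a description of letters in this window and not a bound site. Shown here, on the gene's own strand and with the matched words in capitals, are 2 S phase promoters with E2F words and 2 mitotic promoters with TTTGAA and CCAAT (read as TTCAAA or ATTGG on the opposite strand).
Mcm6 (chr1:128359656-128359955, minus strand): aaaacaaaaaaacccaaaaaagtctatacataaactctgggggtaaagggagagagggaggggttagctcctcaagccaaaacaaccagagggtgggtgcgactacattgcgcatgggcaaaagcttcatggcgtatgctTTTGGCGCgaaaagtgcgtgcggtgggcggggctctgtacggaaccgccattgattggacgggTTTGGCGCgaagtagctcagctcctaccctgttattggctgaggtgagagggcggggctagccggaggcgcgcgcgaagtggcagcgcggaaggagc
Mcm7 (chr5:138171834-138172133, minus strand, 1 of its annotated starts): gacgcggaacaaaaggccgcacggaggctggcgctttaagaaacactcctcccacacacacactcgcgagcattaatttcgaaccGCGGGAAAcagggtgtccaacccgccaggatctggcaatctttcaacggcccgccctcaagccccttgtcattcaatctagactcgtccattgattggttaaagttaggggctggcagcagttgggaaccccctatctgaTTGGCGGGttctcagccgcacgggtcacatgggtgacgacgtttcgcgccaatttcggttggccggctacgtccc
Cenpa (chr5:30666636-30666935, plus strand): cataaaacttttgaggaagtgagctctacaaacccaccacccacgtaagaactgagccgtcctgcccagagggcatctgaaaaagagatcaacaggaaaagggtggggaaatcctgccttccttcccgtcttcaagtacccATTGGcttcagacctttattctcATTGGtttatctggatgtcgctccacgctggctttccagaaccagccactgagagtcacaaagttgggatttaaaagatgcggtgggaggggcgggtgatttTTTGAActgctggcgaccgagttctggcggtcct
Top2a (chr11:99024140-99024439, minus strand): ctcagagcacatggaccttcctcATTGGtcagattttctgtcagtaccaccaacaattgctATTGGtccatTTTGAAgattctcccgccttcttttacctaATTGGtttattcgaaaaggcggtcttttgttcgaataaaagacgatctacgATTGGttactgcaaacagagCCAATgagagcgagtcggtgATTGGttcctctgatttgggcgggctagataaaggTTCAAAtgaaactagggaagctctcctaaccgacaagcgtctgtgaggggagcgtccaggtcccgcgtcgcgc
In Mcm6 the same E2F word stood at both places, from base −110 to −103 and from base −47 to −40 relative to the start, where the first transcribed base is 0. Mcm7 held TTTCCCGC on the opposite strand, from base −165 to −158 relative to the start, and TTGGCGGG from base −25 to −18. Top2a held TTTGAA in both orientations and 6 CCAAT matches, while the single TTTGAA of Cenpa lay after the start, from base 16 to 21.

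The table held 1690867 counts in 1985 barcodes, of which 1050 had at least 500 counts, at least 200 detected genes and under 20% mitochondrial counts. These 1050 cells held 1549040 counts, with a median of 1235.5 per cell (quartiles 963 and 1723, range 501 to 13023) and a median of 612 genes. The members took 7287 of those counts, or 0.470%. A gene at 0 counts over all of these cells may still be present at up to 1.94 CPM (counts scaled to a total of 1000000), the level of 3 counts.

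Among the S phase members, Mcm6, a subunit of the MCM helicase, was carried by the most cells, followed by Dut and Pcna. A cell carries a gene when it has at least 1 count of it. Mcm6 was carried by 163 cells (15.5%, exact binomial 95% interval 13.4 to 17.9), more than Mcm4 (89 cells), Mcm2 (78), Mcm7 (74), Mcm3 (62) and Mcm5 (43). The 6 subunits form 1 ring in equal numbers, but their transcripts were found in unequal numbers of cells, which compares detection near the 3′ end and not levels per length. Of the nucleotide enzymes, Dut, which removes dUTP, was carried by 118 cells (11.2%, 9.39 to 13.3), Rrm1 and Rrm2, the 2 subunits of ribonucleotide reductase, by 70 and 36, Tyms, which makes thymidylate, by 32 and Tk1, which recycles thymidine, by 31. The clamp gene Pcna was carried by 103 cells (9.81%, 8.08 to 11.8). 2810417H13Rik, now named Pclaf and coding for a PCNA-binding factor, was carried by 56 cells, and Uhrf1, which keeps DNA methylation through replication, by 26 cells.

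The mitotic members were carried by fewer cells, with a median of 26 carrying cells per member against 66 for the S phase members. Cenpa, the histone H3 variant of centromeres, led with 83 cells (7.90%, 6.35 to 9.71). It was followed by Top2a, the topoisomerase that untangles sister DNA, with 60 cells (5.71%, 4.39 to 7.29), and Cks2, a CDK-binding subunit, with 57. Ube2c, the ubiquitin-conjugating enzyme of the anaphase-promoting complex, was carried by 38 cells, and Tpx2, a spindle assembly factor, by 37. The cyclins Ccna2, Ccnb2 and Ccnb1 were carried by 29, 26 and 7 cells, and their kinase Cdk1 by 24. Birc5 (survivin) was carried by 27 cells, the spindle motor Kif11 by 26, the kinases Aurkb, Plk1 and Aurka by 19, 18 and 10, the APC activator Cdc20 by 13 and the spindle protein Nusap1 by 11. Cenpe, a centromere motor, had 0 counts (0 of 1050 cells, which allows a share of up to 0.351% by the exact interval).

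The 8 other members ranged from 26 to 416 carrying cells. H2afz, a histone variant of active chromatin, was carried by 416 cells (39.6%, 36.6 to 42.7), the tubulins Tubb5 and Tuba1b by 337 and 307, and Hmgb2, a chromatin protein, by 293. Stmn1 (60 cells), H2afx (41), Cks1b (40) and Hmgn2 (26) were carried about as rarely as the S phase and mitotic members. A mitotic member was carried by 76.7% of Stmn1, 61.0% of H2afx, 80.0% of Cks1b and 57.7% of Hmgn2 carriers. For H2afz, Tubb5, Tuba1b and Hmgb2 these shares were 26.4%, 28.8%, 30.6% and 31.7%. The handling of reads that fit several gene copies is not given in the sources used here, so the split of counts between tubulin, histone and high mobility group paralogs is uncertain.

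**Figure D1:**
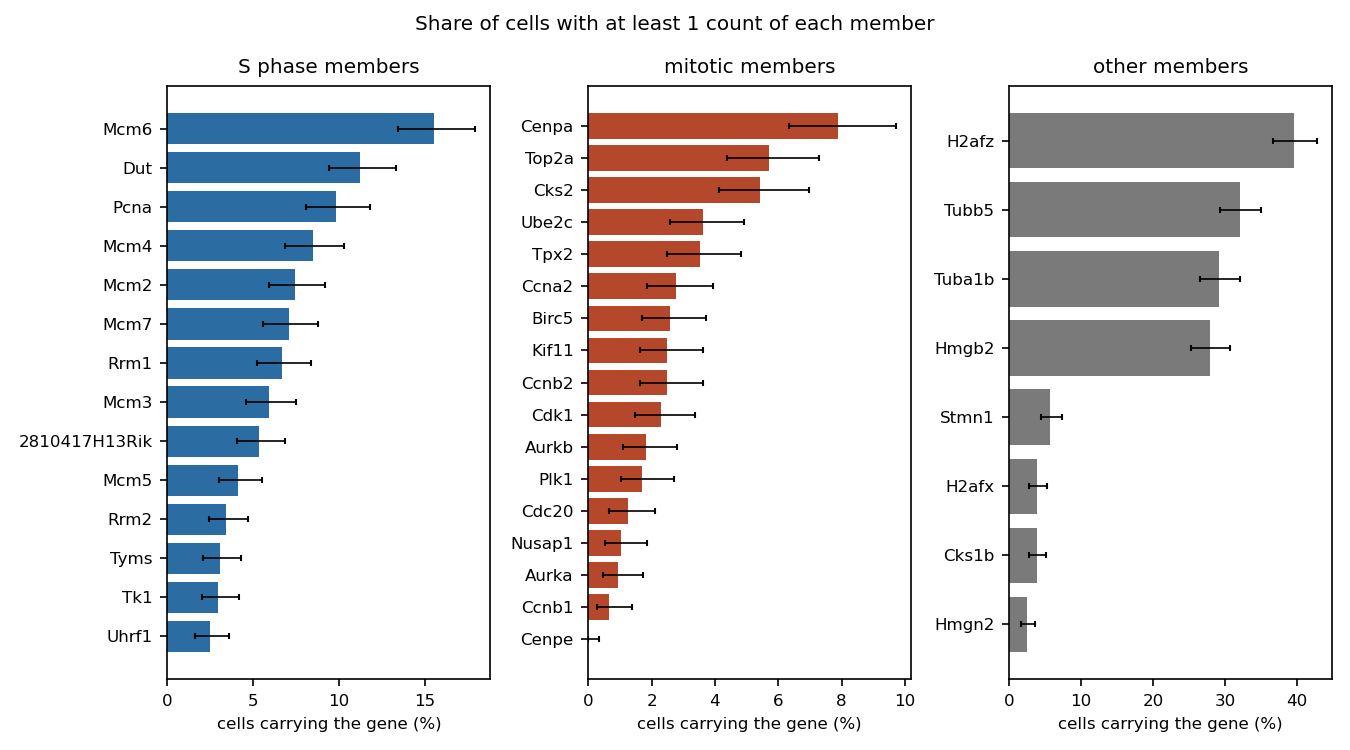
Share of the 1050 cells (x axis, %) that carried each S phase (left), mitotic (middle) and other member (right), with exact binomial 95% intervals as lines; the x axes differ between panels. Mcm6 leads the S phase members at 15.5%, Cenpa the mitotic members at 7.90% and H2afz the others at 39.6%.

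Counts of both kinds of member were concentrated in few cells. At least 1 S phase member was carried by 489 cells (46.6%, 43.5 to 49.6), and 308 of these carried exactly 1. At least 1 mitotic member was carried by 217 cells (20.7%, 18.3 to 23.2), of which 161 carried exactly 1 and 56 carried 2 or more (5.33% of all cells, 4.05 to 6.87). Those 56 cells held 78.8% of all mitotic counts and 45% of all S phase counts. The 46 cells (4.38%) with at least 4 S phase members held 55.4% of all S phase counts. The 56 cells were chosen by mitotic members and the 46 by S phase members. Their shares of those same counts are thus partly set by the choice. Both sets were also deeper, with medians of 2609 and 2788 counts against 1235.5 over all cells. A total of 25 cells carried at least 4 members of both kinds, 10 carried at least 4 S phase members and no mitotic member, and 12 carried at least 2 mitotic members and no S phase member. Carrying both kinds were 123 cells, which is 25.2% of the S phase carriers and 56.7% of the mitotic carriers. These counts are ranges cut from the number of members found, not cell types or measured phases.

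Members differed in the company they kept. Of the Mcm6 carriers 61.3% carried another S phase member and 37.4% a mitotic member, and for Dut these shares were 63.6% and 36.4%. Uhrf1 and Tk1 carriers stood at the other end, with 96.2% and 90.3% carrying another S phase member and 84.6% and 80.6% a mitotic member. Among mitotic members, 93.1% of Ccna2 carriers, 92.6% of Birc5 carriers and 92.3% of Ccnb2 carriers carried a further mitotic member, against 34.9% for Cenpa, 50.9% for Cks2 and 61.7% for Top2a. Cenpa, the mitotic member found in the most cells, was thus the one most often found without another. Within the MCM genes, 239 cells carried 1 subunit, 53 carried 2, and 11, 15, 7 and 6 cells carried 3, 4, 5 and 6 subunits.

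Depth moved with these counts and its part in them was not tested. The median cell had 1195 counts where no mitotic member was found, 1377 with 1, 2018 with 2, 2517 with 3 and 3240.5 with 4 or more. Carriers of Cenpa and Dut had medians of 1659 and 1659.5 counts, against 3277 for Birc5 and 2862 for Uhrf1. A second measure beside these shares is the barcodes with few counts, which may hold RNA free in the droplets, though that was not tested. The 733 barcodes with under 200 counts, too few for a cell, held the S phase members at 460 CPM (exact Poisson interval 306 to 665) and the mitotic members at 263 CPM (150 to 427), against 1367 and 639 CPM in the kept cells. Only 1 of these barcodes carried 2 or more S phase members and 0 carried 2 or more mitotic members. At under 200 counts each, few could, so this does not set them apart from the kept cells. Of the same barcodes, 12 carried 2 or more T cell markers. Among 48 cells with at least 2 naive T cell markers and no count of Foxp3, Gata3 or Il10, 31.2% carried an S phase member (18.7 to 46.3) and 14.6% a mitotic member (6.07 to 27.8), at a median of 1259 counts. Over all 70 cells with at least 2 naive markers these shares were 41.4% and 21.4%, against 46.9% and 20.6% of the 980 other cells. At least 2 mitotic members were carried by 8.57% of the 70 and 5.10% of the 980 cells.

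**Figure D2:**
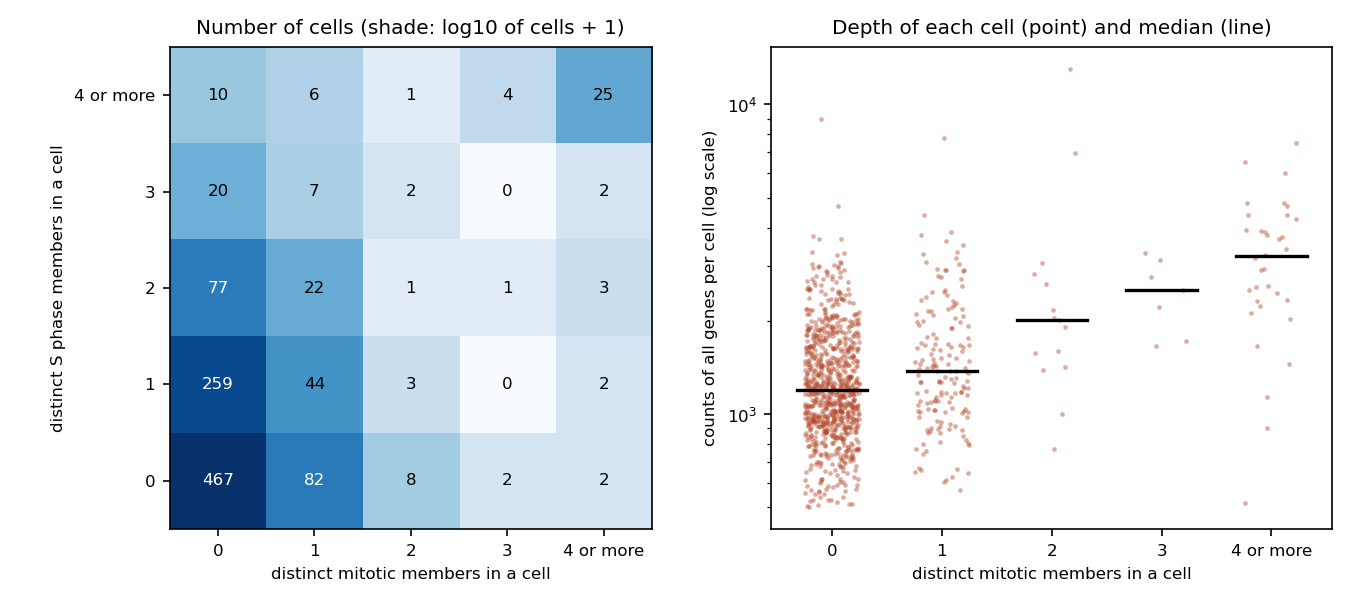
Left, number of cells by distinct mitotic members (x axis) and distinct S phase members (y axis), shaded by log10 of the number plus 1; right, counts of all genes per cell (log y axis) by distinct mitotic members, each point a cell and each line a median. The upper right corner holds 25 cells with at least 4 members of both kinds, and the median depth climbs to 3240.5 counts in cells with 4 or more mitotic members.

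To compare gates at 1 depth, the share of carrying cells was computed as the number to be found when each cell is thinned to 500 counts. Gates were set on the full counts, with at least 1 count of the gate gene on the positive side. The positive cells were deeper in each gate, with medians of 1304.5 against 1215 counts for Foxp3, 1336 against 1161 for Gata3 and 1314 against 1212 for Il10. All cells had more than 500 counts, so none was left out by thinning. The negative sides may also hold cells that express the gate gene but gave no count of it. They also held most of the 24 cells with at least 2 markers of another cell type. Leaving these out left 329 Foxp3-positive and 697 Foxp3-negative cells of 332 and 718. For Gata3 it left 567 and 459 of 572 and 478, and for Il10 265 and 761 of 266 and 784. A member was called higher or lower when its share differed by at least 1.5-fold, among genes carried by at least 20 cells, which took in 14 S phase, 10 mitotic and 8 other members and 6683 genes in all. The members are carried in part by the same cells, so they are not independent of each other.

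Cells with Foxp3, the lineage factor of Tregs, carried S phase and mitotic members about as often as cells without it, but single members tended to lower shares. At 500 counts an S phase member was carried by 28.8% of 332 Foxp3-positive cells (24.0 to 34.0) and 27.0% of 718 Foxp3-negative cells (23.7 to 30.4), a log2 ratio of 0.10 (interval −0.20 to 0.40). A mitotic member was carried by 10.1% of Foxp3-positive (7.11 to 13.9) and 11.3% of Foxp3-negative cells (9.05 to 13.8), a log2 ratio of −0.15 (−0.70 to 0.40). At least 2 mitotic members were carried by 2.37% of Foxp3-positive and 2.89% of Foxp3-negative cells, with overlapping intervals (1.02 to 4.64 and 1.79 to 4.39). Unthinned, an S phase member was carried by 50.3% of Foxp3-positive and 44.8% of Foxp3-negative cells and a mitotic member by 21.1% and 20.5%, and 18 Foxp3-positive cells (5.42%) and 38 Foxp3-negative cells (5.29%) carried at least 2 mitotic members.

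By gene, 1 of the 32 members was at least 1.5-fold higher in Foxp3-positive cells and 12 were lower, against 12.2% and 13% of all genes. The members' median log2 ratio was −0.47, against 0.02 over all genes. The lower ones were 3 of 14 S phase, 5 of 10 mitotic and 4 of 8 other members, and the higher one was Ccnb2. The lower count was 7 with unthinned counts, where 8.27% of all genes were lower, and 6 of 17 members with gate and readout on 1 thinned draw, where 19.5% were. Of the S phase members carried by the most cells, Mcm6 was carried by 9.01% of Foxp3-positive and 7.36% of Foxp3-negative cells at 500 counts. Mcm4 was at 3.93% on both sides and Mcm2 at 2.64% of Foxp3-positive and 3.03% of Foxp3-negative cells. These 3 helicase genes lay within 1.5-fold, while Mcm5 stood at a log2 ratio of −0.75. Dut was carried by 3.89% of Foxp3-positive and 5.29% of Foxp3-negative cells, and Pcna by 3.25% and 4.04%, in the same order. Among the mitotic members, Top2a was carried by 1.83% of Foxp3-positive (0.682 to 3.93) and 3.09% of Foxp3-negative cells (1.95 to 4.63), and Tpx2 by 0.826% (0.154 to 2.50) and 1.38% (0.662 to 2.53). Both were past 1.5-fold, with intervals that overlapped. Ube2c was at 1.07% of Foxp3-positive and 1.55% of Foxp3-negative cells, Cks2 at 1.81% and 2.15%, and Cenpa at 3.86% and 3.27%. Cenpa and Mcm6 alone of these 10 were higher in the Foxp3-positive cells, each within overlapping intervals. Of the others, Hmgb2 was carried by 10.6% of Foxp3-positive (7.54 to 14.5) and 15% of Foxp3-negative cells (12.5 to 17.8) and Tuba1b by 14.3% and 17.4%, against 23.7% and 19.7% for H2afz and 18% and 17.7% for Tubb5.

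Cells with Gata3, a factor of type 2 T cells and of many colon Tregs, carried S phase members slightly more often, within counting error. At 500 counts an S phase member was carried by 29.1% of 572 Gata3-positive cells (25.4 to 33.0) and 25.7% of 478 Gata3-negative cells (21.8 to 29.9), a log2 ratio of 0.18 (−0.11 to 0.47). A mitotic member was carried by 11.2% of Gata3-positive and 10.6% of Gata3-negative cells, a log2 ratio of 0.08 (−0.42 to 0.58). At least 2 S phase members were carried by 7.65% of Gata3-positive (5.61 to 10.1) and 5.70% of Gata3-negative cells (3.80 to 8.18). Unthinned, an S phase member was carried by 50% of Gata3-positive and 42.5% of Gata3-negative cells and a mitotic member by 21.7% and 19.5%. At least 2 mitotic members were carried unthinned by 33 of the Gata3-positive and 23 of the Gata3-negative cells.

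Each of the 14 S phase members had a log2 ratio above 0, from 0.03 for Pcna to 0.93 for Rrm1, where 3629 of 6683 genes did. With gate and readout on 1 thinned draw, Mcm2 stood at −0.75, so the shared sign is not stable to how the gate is set. Over all members, 4 were at least 1.5-fold higher in Gata3-positive cells and 1 was lower, against 12.7% and 8.84% of all genes. The higher ones were Rrm1, Ccna2, Cks1b and H2afz, and the lower one was Kif11. The 4 became 9 with unthinned counts, where 16.8% of all genes were higher. H2afz was the member whose intervals did not overlap, with 25.1% of Gata3-positive (21.6 to 28.9) and 16.0% of Gata3-negative cells (12.8 to 19.6). Mcm6 was carried by 8.0% of Gata3-positive and 7.73% of Gata3-negative cells, Mcm4 by 4.0% and 3.85% and Pcna by 3.83% and 3.74%. These 3 were close to even, while Dut (5.41% of Gata3-positive and 4.18% of Gata3-negative cells) and Mcm2 (3.22% and 2.53%) leaned to the Gata3-positive side. Among mitotic members, Top2a was at 2.71% of Gata3-positive and 2.67% of Gata3-negative cells, Cks2 at 2.29% and 1.74%, and Tpx2 at 1.37% and 1.0%. Cenpa (3.19% and 3.78%) and Ube2c (1.31% and 1.49%) leaned the other way. Of the remaining members, Hmgb2 was carried by 15.5% of Gata3-positive (12.7 to 18.8) and 11.4% of Gata3-negative cells (8.66 to 14.6), Tubb5 by 18.4% and 17.1%, and Tuba1b by 15.1% and 18%.

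Cells with Il10, the gene of the suppressive cytokine interleukin 10, carried mitotic members at a lower share, with an interval of the log2 ratio that took in 0. At 500 counts a mitotic member was carried by 8.46% of 266 Il10-positive cells (5.41 to 12.5) and 11.7% of 784 Il10-negative cells (9.58 to 14.2), a log2 ratio of −0.47 (−1.11 to 0.16). The ratio was below 0 in each of 11 alternative settings, from −0.95 to −0.18. At least 2 mitotic members were carried by 1.44% of Il10-positive (0.381 to 3.72) and 3.16% of Il10-negative cells (2.05 to 4.64), and unthinned by 9 cells (3.38%) and 47 cells (5.99%). Of all 56 cells with at least 2 mitotic members, 6 had at least 2 markers of another cell type. Cells with such markers were mostly Il10-negative. Leaving them out was among the 11 alternative settings for the share with at least 1 mitotic member. Their part in the shares with at least 2 mitotic members was not tested. For S phase the share with at least 1 member was almost even, 27.1% of Il10-positive (21.9 to 32.9) and 27.7% of Il10-negative cells (24.6 to 31.0). Unthinned, an S phase member was carried by 49.2% of Il10-positive and 45.7% of Il10-negative cells, and a mitotic member by 18.8% and 21.3%. At least 2 S phase members were carried at 500 counts by 4.72% of Il10-positive (2.50 to 8.0) and 7.46% of Il10-negative cells (5.72 to 9.53). In pooled counts, the S phase members had 941 CPM in Il10-positive and 1518 CPM in Il10-negative cells, a log2 ratio of −0.69.

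By gene, 0 of 32 members were at least 1.5-fold higher in Il10-positive cells and 18 were lower, against 12.9% and 14.7% of all genes, and the median log2 ratio was −0.66, against 0.01. The lower ones were 7 of 14 S phase, 7 of 10 mitotic and 4 of 8 other members. With gate and readout on 1 thinned draw, 5 of 17 members were lower, where 19.6% of all genes were. Over the other alternatives the count reached 22, where 10.9% to 19.9% of all genes were lower. The MCM genes split: Mcm6 was carried by 8.93% of Il10-positive and 7.53% of Il10-negative cells, Mcm4 by 4.23% and 3.83%, and Mcm2 by 2.08% and 3.19%. Mcm2 thus lay past 1.5-fold on the lower side, but stood at a log2 ratio of 0.05 with gate and readout on 1 thinned draw. Pcna was carried by 2.17% of Il10-positive (0.778 to 4.72) and 4.34% of Il10-negative cells (3.02 to 6.01), and Dut by 3.29% (1.49 to 6.20) and 5.38% (3.91 to 7.20). The lowest ratio of an S phase member was that of 2810417H13Rik, with 0.789% of Il10-positive (0.103 to 2.75) and 3.21% of Il10-negative cells (2.10 to 4.70), a log2 ratio of −2.03. It was carried by 7 Il10-positive and 49 Il10-negative cells before thinning. Even for this gene the 2 intervals overlapped. Among the mitotic members, Cenpa was near even at 3.55% of Il10-positive and 3.42% of Il10-negative cells. Top2a was carried by 1.93% of Il10-positive (0.642 to 4.40) and 2.95% of Il10-negative cells (1.88 to 4.39), Cks2 by 1.08% (0.212 to 3.19) and 2.37% (1.42 to 3.69), Tpx2 by 0.508% and 1.44%, and Ube2c by 1.12% and 1.49%. Before thinning, Aurkb, the kinase of the chromosomal passenger complex, was carried by 0 of the Il10-positive and 19 of the Il10-negative cells. Plk1 was carried by 1 and 17, Nusap1 by 1 and 10, Aurka by 1 and 9, and Ccnb1 by 1 and 6. Cdc20 went the other way, with 4 of 266 Il10-positive and 9 of 784 Il10-negative cells. Its log2 ratio at 500 counts was 1.23. All of these were carried by too few cells to enter the count of members. The abundant other members leaned the other way or were near even, with Tubb5 at 19.9% of Il10-positive and 17.1% of Il10-negative cells, H2afz at 23.2% and 20.2% and Tuba1b at 17.0% and 16.2%, while Hmgb2 was at 10.5% and 14.7%.

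**Figure D3:**
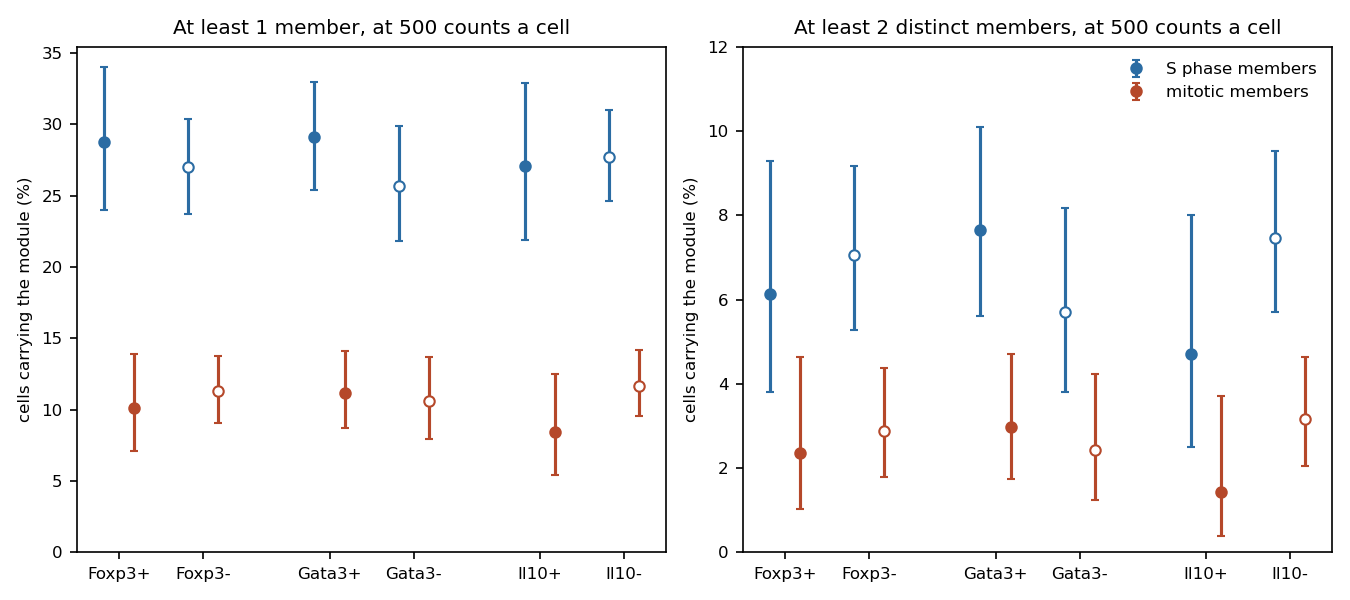
Share of cells (y axis, %) expected at 500 counts to carry at least 1 (left) or at least 2 distinct members (right), S phase in blue and mitotic in red, filled for gate-positive and open for gate-negative cells, with exact binomial 95% bounds at the expected number. The bounds overlap in each pair, including Il10 in the right panel, with mitotic shares of 1.44% in positive and 3.16% in negative cells.

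**Figure D4:**
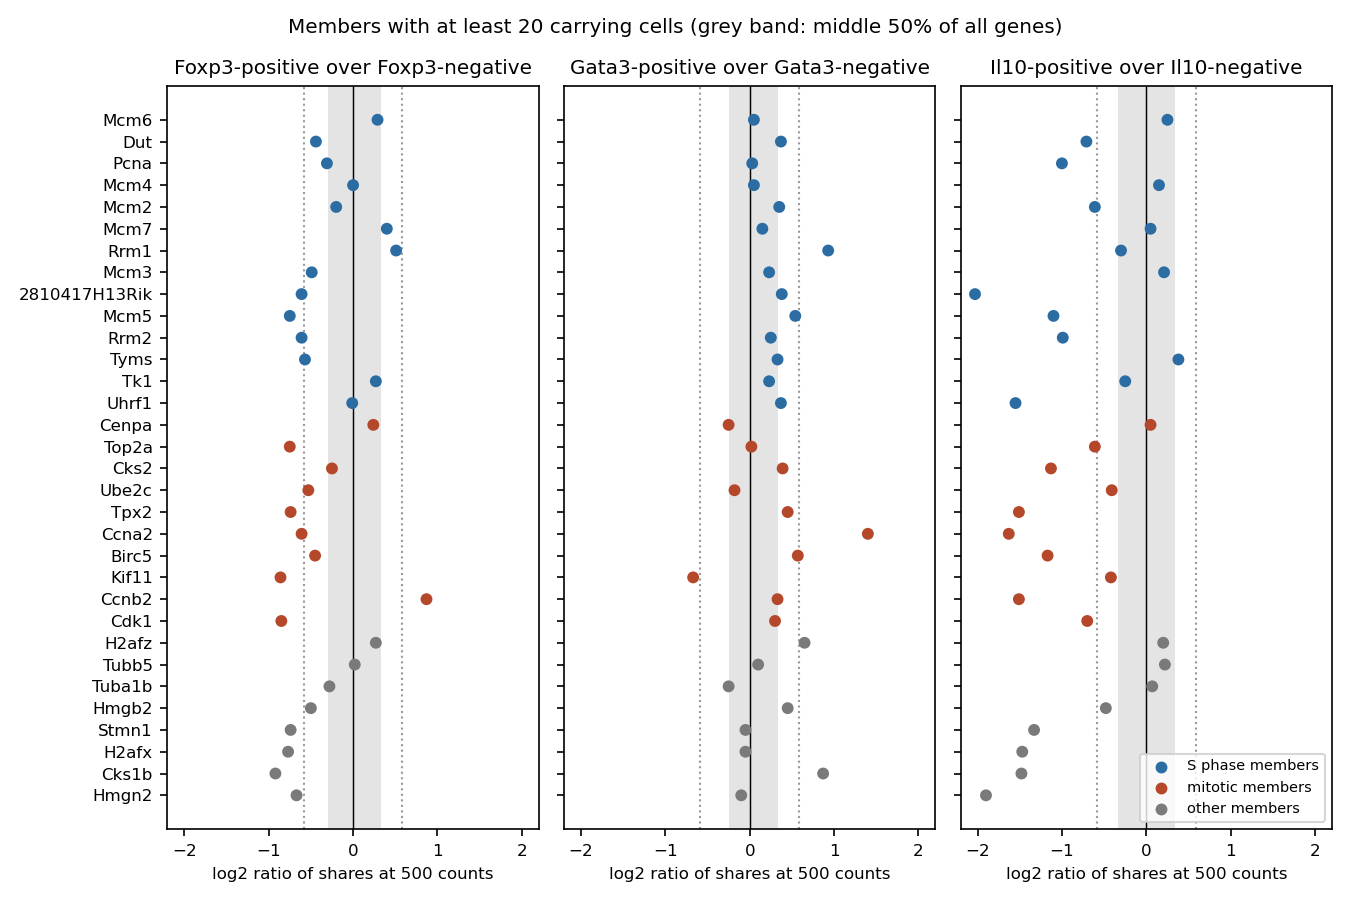
Log2 ratio (x axis) of the share at 500 counts in gate-positive over gate-negative cells for the 32 members carried by at least 20 cells, with dotted lines at 1.5-fold and a grey band for the middle 50% of all 6683 genes. In the Il10 panel 18 members lie past the lower line and 0 past the upper one, where 14.7% and 12.9% of all genes do. In the Gata3 panel the 14 S phase members lie right of 0, where 3629 of 6683 genes do.

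Split by all 3 gates at once, the mitotic share at 500 counts was 5.35% of the 70 Foxp3-negative, Gata3-positive, Il10-positive cells (1.39 to 13.5), against 13.9% of the 301 Foxp3-negative, Gata3-positive, Il10-negative cells (10.2 to 18.4). Among Foxp3-positive, Gata3-positive cells it was 6.59% of 94 cells with Il10 (2.50 to 13.6) and 11.3% of 107 without (6.01 to 18.9). Among Foxp3-positive, Gata3-negative cells it was 10.4% of 52 with Il10 and 12.6% of 79 without. In Foxp3-negative, Gata3-negative cells the order was the other way, with 14.3% of 50 cells with Il10 (6.03 to 27.1) and 9.45% of 297 without (6.38 to 13.4). The intervals overlapped in each pair, and the differences were not tested. The S phase share ran from 21.2% (Foxp3-positive, Gata3-negative, Il10-positive) to 31.9% (Foxp3-positive, Gata3-negative, Il10-negative) over the 8 combinations, with overlapping intervals (11.1 to 34.8 and 21.9 to 43.3).

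Other cell cycle genes in the same gates were counted from 4 lists. In Foxp3-positive cells, 5 of 15 further S phase genes and 1 of 12 further mitotic genes were at least 1.5-fold lower, and 0 and 2 were higher, beside 13% of all genes lower and 12.2% higher. The mitotic counts there were near those shares. In Gata3-positive cells 2 of the 15 S phase genes were higher and 1 was lower, and 3 of the 12 mitotic genes were higher and 0 lower, beside 12.7% of all genes higher and 8.84% lower. The counts there are small and not far from those shares. In Il10-positive cells 7 of 15 S phase and 5 of 12 mitotic genes were lower, and 0 and 1 higher, beside 14.7% of all genes lower and 12.9% higher. Their median log2 ratios in that gate were −0.53 and −0.43, against 0.01 over all genes. Usp1, the deubiquitinase of PCNA, was carried by 1.77% of Il10-positive and 3.75% of Il10-negative cells, and the histone messenger-binding Slbp by 4.37% and 5.04%. The condensin gene Smc4, carried by the most cells of the mitotic list, was at 7.41% of Il10-positive and 8.77% of Il10-negative cells. Of 12 G1 genes 3 were higher in Il10-positive cells and 2 lower, and of 14 inhibitors 3 were higher and 3 lower, beside the same shares of all genes. Ccnd2, the D-type cyclin that drives G1 in T cells, was carried by 47.7% of Il10-positive and 42.1% of Il10-negative cells.

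The 56 cells with at least 2 mitotic members were then set against the 467 cells with no S phase or mitotic member, again at 500 counts and for genes outside the member list. Of 6652 genes, 26.0% were at least 1.5-fold higher and 25.3% lower. Further S phase genes were higher for 14 of 15 and further mitotic genes for 12 of 12. These counts are a description and support nothing, since genes entered on their carriers over all cells, and some reached 20 largely through the 56 cells: Asf1b was carried by 23 of the 56 and 4 of the 467, and Cdca8 by 19 and 2. An alternative chosen after seeing the data took only genes carried by at least 20 of the 467 cells. It left 4 S phase genes, of which 3 were higher and 0 lower, and 4 mitotic genes, all of them higher, where 18.6% of 3443 genes were higher and 21.9% lower. Asf1b, a histone chaperone, was carried by 14.1% of the cells with mitotic members (6.22 to 26.0) and 0.413% of those with none (0.0471 to 1.51). Smc2, a condensin subunit, was carried by 17.2% (8.40 to 29.6) of the cells with mitotic members and 1.46% (0.578 to 3.01) of those with none. The S phase genes of the alternative were Slbp, Usp1, Dnmt1 and Rfc2. Slbp was at 14.8% and 4.45%, Usp1 at 11.7% and 3.07%, Dnmt1, the maintenance DNA methyltransferase, at 8.10% and 2.15%, and Rfc2, a clamp loader subunit, at 5.60% and 4.13%. Rfc2 was the S phase gene that did not reach 1.5-fold. Of the mitotic genes that entered it, Smc4 was at 19.2% and 7.63%, the checkpoint gene Bub3 at 7.95% and 4.31%, the securin gene Pttg1 at 4.69% and 2.88% and the spindle gene Ckap2 at 4.53% and 2.35%. Bub1b, Kif20a, Spc25, Cdca3, Pbk, Hmmr and others were carried by 0 of the 467 cells, among them Bub1b by 15 and Kif20a by 14 of the 56, and give no ratio.

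The 12 genes of highest ratio outside the list are given as a description of the 56 cells, whose own carriers counted toward the minimum of 20 carrying cells. They were Hist1h2ap, a replication-dependent histone H2A gene (11.0% of the cells with mitotic members, 4.19 to 22.2, and 1 of the 467 cells before thinning), Cdca8 of the chromosomal passenger complex (9.71% and 0.275%), Asf1b, Tcf19, Fbxo5, an inhibitor of the anaphase-promoting complex, the cytokinesis genes Prc1 and Kif23, Hmgb3, the checkpoint gene Mad2l1, Smc2, Tmem97 and Muc2. Muc2, the mucin of goblet cells, does not belong to T cells: it was carried by 4 of the 56 and 3 of the 467 cells, with 391 and 3 counts. The 56 cells included 5 with at least 2 of 9 measured epithelial markers, against 0 of the 467, and epithelial markers summed to 5590 and 12.4 CPM. At least 1 of 8 T cell markers was carried by 52 of the 56 cells (92.9%) and 449 of the 467 (96.1%), and by 25 of the 25 cells with at least 4 members of both kinds. Of those 25 cells, 2 carried at least 2 epithelial markers, and epithelial markers summed to 517 CPM over the 25. Erythroid markers were at 0 in both sets, and 0 of the 56 cells carried 2 or more B or plasma markers. Leaving out cells with at least 2 markers of another type left the further S phase and mitotic genes within 1.5 times of these counts, and the share of cells with at least 2 mitotic members at 4.87%. The lowest ratios could not be ranked, since 122 of 6358 genes were carried by none of the 56 cells.

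Of 12 G1 regulators, 6 were at least 1.5-fold higher in the cells with mitotic members and 2 were lower, beside 26.0% of all genes higher and 25.3% lower. With unthinned counts, 10 of them were higher and 0 lower. Ccnd2 was among the lower ones, with 22.7% of the cells with mitotic members (12.5 to 35.8) and 44.0% of those with none (39.4 to 48.6), intervals that did not overlap. Ccnd3 was at 14.6% and 9.69%, its kinase Cdk4 at 6.06% and 3.21%, and Rbl2, a pocket protein of quiescent cells, at 5.22% and 7.59%. Among 14 inhibitors of the cycle, 10 were lower and 3 higher, beside the same shares of all genes. Of the 9 inhibitors carried by at least 20 of the 467 cells, 8 were lower and 0 higher, beside 21.9% of 3443 genes lower and 18.6% higher. The antiproliferative Btg1 was carried by 36.0% of the cells with mitotic members (23.6 to 49.9) and 59.3% of those with none (54.7 to 63.8), Btg2 by 10.7% and 18.5%, Gadd45b by 10.8% and 16.5% and Klf2, a quiescence factor, by 7.31% and 12.5%. The 3 higher ones were the CDK inhibitor genes Cdkn2c (3.04% and 0.844%), Cdkn2d (6.48% and 1.80%) and Cdkn1a (4.03% and 1.27%), while Cdkn1b, which codes for p27, was at 2.87% and 8.05%. The lower calls rest on the depth setting: at 1000 counts 3 inhibitors were lower, and with unthinned counts 0 were lower and 7 higher. The share of all genes called at those settings is not given here, for the inhibitors or the G1 genes. The cells with mitotic members had a median of 2609 counts and those with none 1102. Unthinned, Btg1 was carried by 82.1% and 80.5%, Ccnd2 by 53.6% and 63.8%, and Il10 by 16.1% of the cells with mitotic members and 24.6% of those with none. Of the gate genes, Il10 was carried by 5.13% of the cells with mitotic members (1.02 to 14.6) and 16.7% of those with none (13.5 to 20.4), Foxp3 by 10.9% (4.14 to 22.1) and 18.1% (14.8 to 21.9), and Gata3 by 31.0% and 37.5%. Cd4 was at 10.4% (3.83 to 21.5) and 23.4% (19.6 to 27.5), and at least 1 T cell marker at 76.5% and 89.1%, so the lower shares at 500 counts took in Cd4 as well. Cd3d (16.6% and 19.8%), Cd3e (7.87% and 9.81%) and Cd3g (16.9% and 21.1%) were lower too, but within 1.5-fold. Unthinned, Cd3d was carried by 55.4% and 33.4%, Cd3e by 30.4% and 19.3%, Cd3g by 57.1% and 38.8%, and Cd4 by 33.9% and 38.8%.

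**Figure D5:**
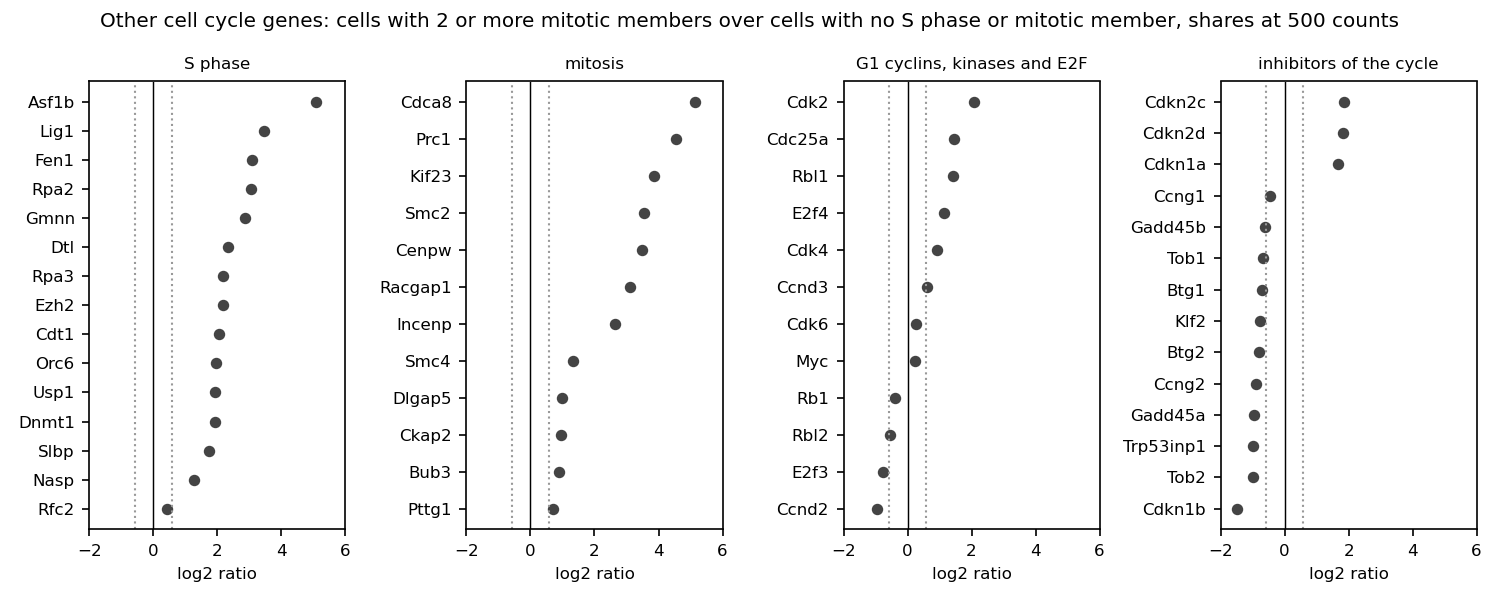
Log2 ratio (x axis) of the share at 500 counts in the 56 cells with at least 2 mitotic members over the 467 cells with no S phase or mitotic member, for listed cell cycle genes outside the members that at least 20 cells carried; dotted lines mark 1.5-fold. All 12 mitosis genes and 14 of 15 S phase genes lie right of the upper line, while 10 of 14 inhibitors lie left of the lower one. Of all genes, 26.0% were higher and 25.3% lower. The S phase and mitosis genes include some whose 20 or more carriers were mostly among the 56 cells. At 1000 counts 3 inhibitors were lower, and unthinned 0 were lower and 7 higher.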

How the data were processed

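Live CD45+ TCRb+ CD4+ cells sorted from digested mouse colon were profiled by inDrops with oligo dT primers, linear amplification by in vitro transcription and NextSeq500 sequencing, per the labels' protocols. The authors deposited 1 table of raw counts, with barcodes in rows and gene symbols in columns. TopHat2, SAMtools and the mm10 build are named in the submitters' processing notes without versions. The sources used here do not give how reads were counted, whether molecular identifiers were collapsed, the strand setting or the annotation.

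The filter on barcodes was a minimum of 500 counts and 200 genes, with mitochondrial counts below 20%. Doublets were kept, since Scrublet (scanpy 1.11.5) called only 9 barcodes (0.857%). Barcodes carry no sample, so the table was 1 sample without replicates and no test was made. The expected number of carrying cells at 500 counts came from the hypergeometric distribution, without random draws, and was checked on simulated data. Exact binomial (Clopper-Pearson) and Poisson intervals are at 95%. Those at 500 counts were evaluated at the expected number, and ratio intervals are log-normal approximations. Counts may include amplification copies, so intervals and floors cover counting error only. Genes carried by at least 20 cells entered each comparison, with 1.5-fold as the size of a call. Scripts used Python 3.11.15, numpy 2.4.6, scipy 1.17.1, pandas 2.3.3 and matplotlib 3.10.9. Per gate, the 5 S phase, 5 mitotic and 4 other members carried by the most cells were named, as were up to 4 genes of each further list and the 12 highest ratios. Mcm5, Aurkb, Plk1, Ccnb1, Nusap1, Aurka, Cdc20, 2810417H13Rik, Rrm1, Ccna2, Ccnb2, Cks1b, Kif11, the gate genes, the Cd3 genes, the genes at 0 and the 4 CDK inhibitor genes were named after their values were seen. The members and lists were chosen with earlier results of these data known. Alternatives were other thinning depths, gates, cell filters, readouts and minimums. There were 0 columns of other samples.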

Additional observations from a re-analysis of the deposited data

Results flagged for a closer look

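The 935 barcodes left out by the cell filter, with 141827 counts in all, also held member counts, above the 21.2 CPM that 0 counts would allow. S phase members stood at 360 CPM there (exact Poisson interval 268 to 473, 51 counts in 35 barcodes), against 1367 CPM in the kept cells. Mitotic members stood at 190 CPM (125 to 277, 27 counts in 19 barcodes, 0 of which carried 2 or more), against 639 CPM in the kept cells. With 27 counts in all, few of these barcodes could carry 2 or more. T cell markers had 2404 CPM in the left-out barcodes and 5245 CPM in the kept cells.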

How the results depend on the processing

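Of 371 values for the 42 named member ratios, 366 moved by less than their counting error. Mcm2 turned to a log2 ratio of 0.05 in Il10 with gate and readout on 1 thinned draw. The S phase ratio moved with pooled CPM to −0.28 for Foxp3 and −0.69 for Il10. The share of cells with at least 2 mitotic members was 7.11% in cells with at least 1000 counts. Members higher in Foxp3-positive cells (1 in the report) numbered 0 at 1000 counts of thinning, in cells of at least 1000 counts and with pooled CPM, 2 on the thinned draw and with a minimum of 10 carrying cells, and 3 unthinned and with 1 carrying cell on each side. Lower ones (12) numbered 7 unthinned and 6 on the thinned draw. Over the alternatives, 11.8% to 22.6% of all genes were higher in Foxp3-positive cells and 8.27% to 20.1% lower. The members counted were 32, but 17 on the thinned draw and 37 with a minimum of 10 carrying cells. Members higher in Gata3-positive cells (4) numbered 7 at 1000 counts, with a gate of 2 counts, in cells of at least 1000 counts, without cells of another type and with either lower minimum, 9 unthinned, 8 with pooled CPM and 2 on the thinned draw. Lower ones (1) numbered 0 at 1000 counts, unthinned, with a gate of 2 counts, in cells of at least 1000 counts and under 10% mitochondrial counts, and 2 on the thinned draw and with either lower minimum. Over the alternatives, 10.9% to 19.8% of all genes were higher in Gata3-positive cells and 4.17% to 20.7% lower. The 7 higher members with 1 carrying cell on each side were of 38, beside 19.8% of all genes. Members higher in Il10-positive cells (0) numbered 1 on the thinned draw and with either lower minimum, and lower ones (18) 5 on the thinned draw. Over the alternatives, 12.3% to 24.4% of all genes were higher in Il10-positive cells and 10.9% to 19.9% lower. In cells with mitotic members, G1 genes that were lower (2) numbered 1 at 1000 counts and without cells of another type, 0 unthinned and 4 with pooled CPM, and higher ones (6) 10 unthinned. Inhibitors that were lower (10) numbered 3 at 1000 counts and 0 unthinned, and higher ones (3) 7 unthinned. With a minimum of 10 carrying cells, 23 S phase and 20 mitotic genes were higher, as more genes entered. With genes entered on at least 20 of the cells with no S phase or mitotic member, an alternative chosen after seeing the data, 3 S phase and 4 mitotic genes were higher, 1 G1 gene was lower and 0 inhibitors were higher, as fewer genes entered. Of all 3443 genes there, 18.6% were higher and 21.9% lower. For the other alternatives in cells with mitotic members, the share of all genes is not given here. The causes of the other moves were not tested.

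No paired analysis was possible because the barcodes carry no sample, and for the same reason leaving out each sample was not run. Depth is one limit: with a median of 1235.5 counts a cell, single counts of a member were not told apart from free RNA, the classes by number of members move with depth, and 7 of the mitotic members were carried by fewer than 20 cells. With 1 table and no sample per barcode, the spread between mice is unknown, and no interval covers it.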
